A study of Mus musculus with 6 samples.

Results

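Transcripts of 10 genes that break down branched-chain amino acids and ketone bodies were measured in the left ventricles (LVs) of WT and *Lztr1* R409C/+ mice. The genes were chosen by name. The branched-chain group held 7 of them, *Bcat2*, *Bckdha*, *Bckdhb*, *Dbt*, *Bckdk*, *Ppm1k*, and *Hibch*, and the ketone group, given apart, held the other 3, *Bdh1*, *Oxct1*, and *Acat1*. These were 10 of the 56923 genes in the count table. LZTR1 is a BTB-Kelch protein that controls the turnover of RAS family proteins, and R409C/+ mice carried a single amino acid substitution on 1 allele, made with CRISPR/Cas9. Both genotypes were on a C57BL/6J background and 12 weeks old, with 3 WT and 3 *Lztr1* R409C/+ mice and 1 library per mouse. Neither genotype received a treatment that the labels name. According to the study's methods, male mice were used, and the LVs were perfused with PBS before RNA was extracted.

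The branched-chain amino acids leucine, isoleucine, and valine are first transaminated in mitochondria by BCAT2, and the keto acids that result are then decarboxylated by the branched-chain ketoacid dehydrogenase complex. This step cannot be reversed, and it is governed by phosphorylation of the complex. The kinase BCKDK turns the complex off, and the phosphatase PPM1K turns it on. Ketone bodies made by the liver are burned in heart mitochondria by BDH1, OXCT1, and ACAT1 in turn. The heart oxidizes ketone bodies readily, and both routes end in acetyl-CoA or other intermediates that enter the citric acid cycle.

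Total counts ranged from 66130887 to 72641124 per mouse, and 17212 genes passed the filter on low counts and were tested. Values below are counts scaled to a common library total (CPM) with TMM, which corrects for differences in library composition, and at these depths 3 counts equalled between 0.0317 and 0.0541 CPM. Such a floor covers counting error only. Genes of the mitochondrial genome made up 13.8% of WT replicate 3 and 45.4% of *Lztr1* R409C/+ replicate 1, against 29.7% to 37.3% of the counts in the other 4 mice. The widest 95% Wilson interval of these shares, that of *Lztr1* R409C/+ replicate 1, spanned 0.0234 percentage points. Such an interval, too, covers counting error only. *Lztr1* itself measured 24.2, 24.2, and 22.2 CPM in WT mice and 23.9, 27.9, and 25.3 CPM in *Lztr1* R409C/+ mice. Counts of a gene with a point mutation do not check the genotype.

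Of the 10 genes, 8 had a lower mean log2 level in *Lztr1* R409C/+ mice, and 2, *Bckdk* and *Hibch*, had a higher one. In *Bckdhb*, *Dbt*, *Ppm1k*, *Oxct1*, and *Acat1*, every mutant mouse was below every WT mouse, whereas in none of the 10 was every mutant mouse above every WT mouse. Mutant means of these 5 genes were between 78.4% and 86.0% of the WT means. None of the 10 genes passed an adjusted p of 0.05 in the quasi-likelihood test of edgeR, with Benjamini-Hochberg adjustment over all 17212 genes, and their adjusted p ranged from 0.533 to 0.948. At an unadjusted p under 0.05, 2 of the 10 were lower (*Dbt* and *Bdh1*) and 0 were higher. DESeq2 and edgeR's exact test likewise called 0 of the 10 after adjustment, with 4 and 2 of them lower at an unadjusted p under 0.05, against 3.2% and 2.75% of all genes, and none higher, against 6.01% and 6.21%. After adjustment, DESeq2 called 0.0871% of all genes lower and 0.831% higher, and the exact test 0.0755% and 0.72%. By edgeR's quasi-likelihood test, the number lower at an unadjusted p under 0.05 moved with the setting, for the 10 and for all genes (in parentheses). For the 10 it was 0 without WT replicate 2 (336 of 17953), without mutant replicate 1 (488 of 17879), or with library size only (301 of 17212). It was 1 without WT replicate 3 (389 of 17716) or without mutant replicate 3 (508 of 17839). With the upper quartile (305 of 17212) or a block for the replicate number (324 of 17212), it was also 1. With a correction for gene length it was 4 (709 of 17127), against 2 (493 of 17212) without these changes.

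Over all genes tested, 1 gene was called lower (0.00581%) and 6 were called higher (0.0349%) after adjustment. At an unadjusted p under 0.05, 2.86% of the tested genes were lower and 5.77% were higher. Every mutant mouse lay below every WT mouse in 7.23% of the tested genes, against 5 of the 10 genes here, and above every WT mouse in 8.3%. A fold change below 0 was found in 48.6% of all genes and in 8 of the 10. The median log2 fold change (*Lztr1* R409C/+ over WT) was -0.25 for the 10 genes and 0.01 for all genes tested. The same 5 genes were without overlap when counts were scaled by DESeq2's size factors or the upper quartile, and 4 of them, all but *Acat1*, when scaled by library size only. That scaling moved the median of all genes to -0.14 and that of the 10 genes to -0.41. The genes were picked with results of these libraries known, so these counts are a description and not an independent test.

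**Figure D1:**
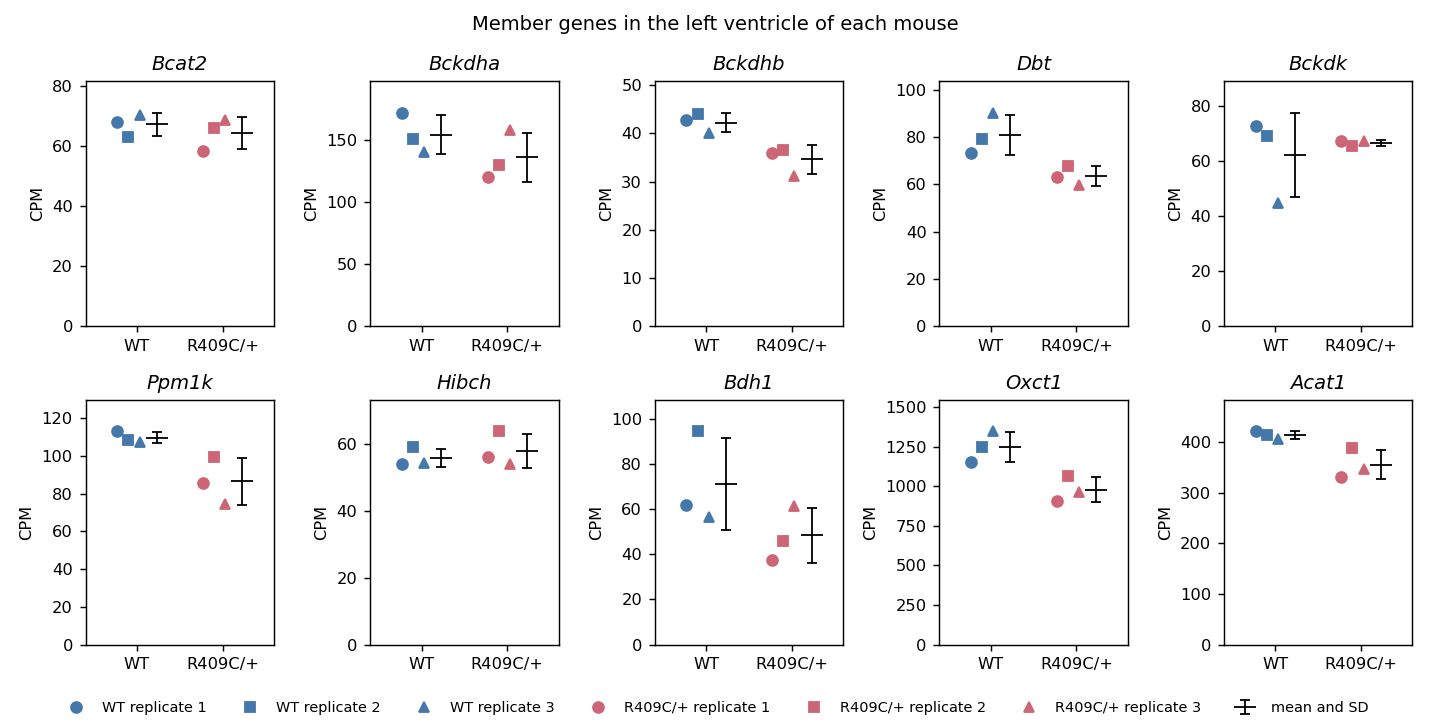
CPM of each of the 10 genes (y axes, each from 0) in the LV of each mouse, with blue symbols for WT and red symbols for *Lztr1* R409C/+ mice, circle, square, and triangle for replicates 1, 2, and 3, and bars for the mean and SD of 3 mice. The red symbols lie wholly below the blue ones for *Bckdhb*, *Dbt*, *Ppm1k*, *Oxct1*, and *Acat1*, and the WT replicate 3 triangle of *Bckdk* stands apart at 44.5 CPM.

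*Bcat2* (ENSMUSG00000030826.20, chromosome 7, 45219577 to 45239152, plus strand, GRCm39), the mitochondrial transaminase of the first step, measured 68.1, 63.1, and 70.6 CPM in WT mice and 58.3, 65.9, and 68.9 CPM in mutant mice, in replicate order. The genotypes overlapped, with only mutant replicate 1 below all WT mice. The means were 67.3 ± 3.80 and 64.4 ± 5.44 CPM (SD, n = 3 each). The log2 fold change was -0.06 with an SE of 0.15 (95% interval -0.38 to 0.26). With an adjusted p of 0.937 by edgeR, a genotype difference was not detected in *Bcat2*. Its direction turned to 0.04 when WT replicate 3 and mutant replicate 1, the mice with the lowest and highest mitochondrial share, were both omitted. With each mouse omitted in turn it ranged from -0.11 (mutant replicate 3, and likewise WT replicate 2) to -0.0049 (mutant replicate 1), and it was -0.03 without WT replicate 3.

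The dehydrogenase complex is built from E1 subunits, encoded by *Bckdha* (E1 alpha) and *Bckdhb* (E1 beta), and from the E2 core encoded by *Dbt*. *Bckdha* (ENSMUSG00000060376.8, chromosome 7, 25326168 to 25358420, minus strand) measured 172, 151, and 141 CPM in WT mice and 120.4, 130.3, and 159 CPM in mutant mice. Mutant replicate 3 exceeded 2 of the WT mice, and the genotypes overlapped. The means of *Bckdha* were 155 ± 15.9 and 136 ± 19.8 CPM (SD, n = 3 each), with a log2 fold change of -0.18 (SE 0.17, 95% interval -0.54 to 0.18) and an adjusted p of 0.806 by edgeR. It ranged from -0.30 without mutant replicate 3 to -0.10 without WT replicate 1.

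*Bckdhb* (ENSMUSG00000032263.15, chromosome 9, 83807130 to 84011081, plus strand) measured 42.8, 44.0, and 40.1 CPM in WT mice and 36.0, 36.6, and 31.2 CPM in mutant mice. All mutant mice were below the lowest WT mouse, replicate 3, and the narrowest gap lay between 40.1 and 36.6 CPM. Mean levels of *Bckdhb* were 42.3 ± 1.99 and 34.6 ± 2.94 CPM (SD, n = 3 each), so that the mutant mean was 81.9% of the WT mean. The log2 fold change of *Bckdhb* was -0.29 (SE 0.15, 95% interval -0.61 to 0.03), and edgeR gave it an unadjusted p of 0.0723 (adjusted p 0.617). The 2 subunits of E1 thus had mean differences of the same sign, with overlap in *Bckdha* and none in *Bckdhb*.

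*Dbt* (ENSMUSG00000000340.11, chromosome 3, 116306686 to 116343633, plus strand) measured 73.4, 79.3, and 90.2 CPM in WT mice and 63.2, 67.9, and 59.7 CPM in mutant mice. Again no mutant mouse reached the WT range. The means of *Dbt* were 81.0 ± 8.51 and 63.6 ± 4.13 CPM (SD, n = 3 each). Of the branched-chain genes, *Dbt* had the lowest log2 fold change, -0.35 (SE 0.15, 95% interval -0.68 to -0.02), close to -0.34 for *Ppm1k*. The unadjusted p of *Dbt* was 0.0398 and its adjusted p was 0.558 by edgeR. Without WT replicate 3, *Ppm1k* (-0.36) was lower than *Dbt* (-0.27). That order also held without mutant replicate 2 and with the replicate block. Without both mice of extreme mitochondrial share, *Bckdhb* (-0.36) and *Ppm1k* (-0.35) were lower than *Dbt* (-0.26).

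Transcripts of the kinase and the phosphatase of the complex were measured, whereas its phosphorylation was not. *Bckdk* (ENSMUSG00000030802.15, chromosome 7, 127502939 to 127510162, plus strand) measured 72.5, 69.1, and 44.5 CPM in WT mice and 67.0, 65.2, and 67.3 CPM in mutant mice. The low value belonged to WT replicate 3, whereas the mutant mice lay close together, between 65.2 and 67.3 CPM, and below the other 2 WT mice. The means of *Bckdk* were 62.0 ± 15.3 and 66.5 ± 1.12 CPM (SD, n = 3 each). The log2 fold change of *Bckdk* was 0.10 (SE 0.19, 95% interval -0.31 to 0.51) with an adjusted p of 0.918 by edgeR, and it turned to -0.09 without WT replicate 3.

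*Ppm1k* (ENSMUSG00000037826.6, chromosome 6, 57483475 to 57512492, minus strand) measured 113, 108, and 107 CPM in WT mice and 85.5, 99.4, and 74.8 CPM in mutant mice. WT mice were close together, and every mutant mouse was lower than all of them. The means of *Ppm1k* were 109.6 ± 2.95 and 86.6 ± 12.3 CPM (SD, n = 3 each). Its log2 fold change was -0.34 (SE 0.16, 95% interval -0.68 to 0.00), and edgeR gave it an unadjusted p of 0.0507 (adjusted p 0.578).

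*Hibch* (ENSMUSG00000041426.13, chromosome 1, 52884079 to 52963346, plus strand), the hydrolase of 3-hydroxyisobutyryl-CoA in the valine arm, measured 54.3, 59.2, and 54.3 CPM in WT mice and 56.3, 63.9, and 54.0 CPM in mutant mice. The genotypes overlapped, with mutant replicate 2 above and mutant replicate 3 just below all WT mice. The means of *Hibch* were 55.9 ± 2.82 and 58.1 ± 5.17 CPM (SD, n = 3 each). The log2 fold change was 0.05 (SE 0.15, 95% interval -0.27 to 0.37) with an adjusted p of 0.948 by edgeR, and its sign turned to -0.03 without mutant replicate 2 and to -0.10 when scaled by library size only.

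In the branched-chain group as a whole, 5 of 7 genes had a lower and 2 a higher fold change, 3 of 7 were without overlap, and the median log2 fold change was -0.18. In the ketone group, 3 of 3 had a lower fold change, 2 of 3 were without overlap, and the median was -0.35. Over all genes tested, 48.6% had a fold change below 0 and 7.23% had every mutant mouse below every WT mouse.

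*Bdh1* (ENSMUSG00000046598.16, chromosome 16, 31241087 to 31277725, plus strand) encodes the dehydrogenase that oxidizes beta-hydroxybutyrate to acetoacetate. It measured 61.9, 94.3, and 56.7 CPM in WT mice and 37.5, 45.8, and 61.5 CPM in mutant mice. WT replicate 2 was high, and mutant replicate 3 lay among the WT mice, so the genotypes overlapped. The means of *Bdh1* were 71.0 ± 20.4 and 48.3 ± 12.2 CPM (SD, n = 3 each), the lowest mutant share of the WT mean among the 10 genes (68.0%). The log2 fold change of *Bdh1* was -0.55 (SE 0.23, 95% interval -1.05 to -0.06), and edgeR gave it an unadjusted p of 0.0307 (adjusted p 0.533). It was -0.30 without WT replicate 2, where *Dbt* (-0.37), *Oxct1* (-0.36), and *Ppm1k* (-0.35) were lower.

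*Oxct1* (ENSMUSG00000022186.15, chromosome 15, 4055638 to 4184828, plus strand) encodes the CoA transferase that activates acetoacetate, the step that liver lacks. It measured 1152, 1247, and 1347 CPM in WT mice and 907, 1066, and 965 CPM in mutant mice. All mutant mice were below all WT mice. The means of *Oxct1* were 1248 ± 97.6 and 979 ± 80.4 CPM (SD, n = 3 each). Its log2 fold change was -0.35 (SE 0.17, 95% interval -0.72 to 0.02), and edgeR gave it an unadjusted p of 0.0640 (adjusted p 0.599).

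*Acat1* (ENSMUSG00000032047.6, chromosome 9, 53450461 to 53521731, minus strand) encodes the mitochondrial thiolase that cleaves acetoacetyl-CoA, and it also serves the isoleucine arm. It measured 421, 414, and 406 CPM in WT mice and 332, 388, and 348 CPM in mutant mice. The WT values were close together and the mutant values were all lower, with the gap between WT replicate 3 and mutant replicate 2 the narrowest. The means of *Acat1* were 414 ± 7.71 and 356 ± 28.9 CPM (SD, n = 3 each), with a log2 fold change of -0.22 (SE 0.15, 95% interval -0.55 to 0.11) and an adjusted p of 0.737 by edgeR.

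For each gene taken singly, a two-sided exact permutation test of the 3 WT against the 3 mutant mice cannot go below 0.1. It gave that smallest p for the 5 genes without overlap and between 0.2 and 1.0 for the other 5. Any gene without overlap must give the smallest p, so this p repeats the lack of overlap and is not a second result. Nothing in the labels says how litters or cages were shared, so each p-value measures the spread between these mice only.

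**Figure D2:**
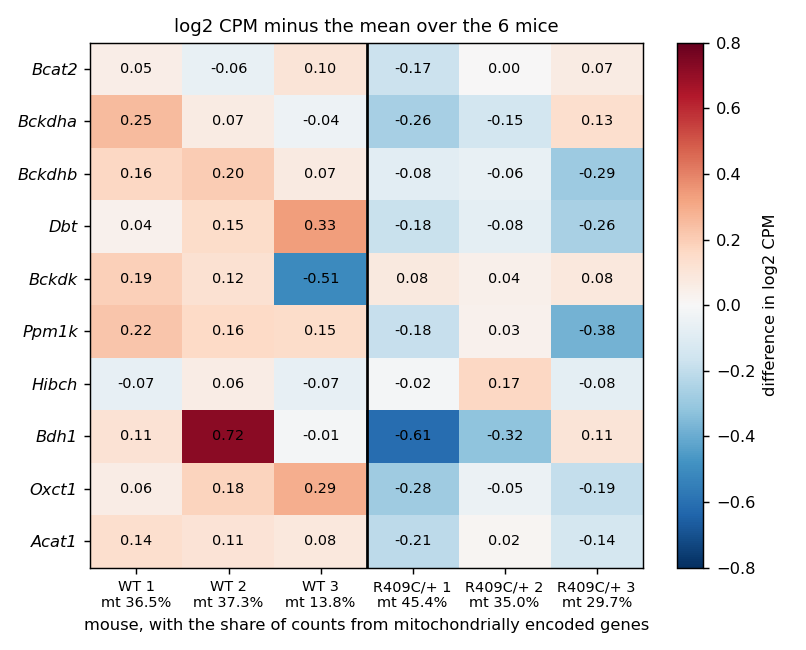
Difference in log2 CPM of each gene (rows) in each mouse (columns) from its mean over the 6 mice, in blue where lower and red where higher, with the share of counts from mitochondrially encoded genes under each mouse. *Lztr1* R409C/+ replicate 1 held the lowest value for 5 genes and replicate 3 for 4, whereas the largest departure on the WT side below the mean was *Bckdk* in replicate 3 (-0.51).

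Single mice differed in how they contributed. The lowest of the 6 values was in mutant replicate 1 for 5 of the 10 genes, in mutant replicate 3 for 4, and in WT replicate 3 for 1, *Bckdk*. The highest was in WT replicate 1 for 4 genes, in WT replicate 3 for 3, in WT replicate 2 for 2, and in mutant replicate 2 for 1, *Hibch*. Mutant replicate 2 was the mutant mouse nearest the WT range in all 5 genes without overlap. Without WT replicate 3 and mutant replicate 1, the mice of extreme mitochondrial share, 8 of the 10 genes had a lower fold change. These were not the same 8, since *Bcat2* turned to 0.04 and *Bckdk* to -0.10, and the median of the 10 was -0.21. Of all genes tested without these mice, 49.1% had a fold change below 0.

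Levels of different genes were compared per kilobase of the canonical transcript. In WT mice *Oxct1* was highest at 354 ± 27.7 CPM per kilobase (SD, n = 3). It was followed by *Acat1* at 98.0 ± 1.83 and *Bckdha* at 80.8 ± 8.34 CPM per kilobase. *Bcat2* at 37.6 ± 2.13 CPM per kilobase stood between these and the lower genes. Next came *Dbt* at 24.3 ± 2.55, *Bdh1* at 22.7 ± 6.52, *Ppm1k* at 19.4 ± 0.522, and *Bckdk* at 17.4 ± 4.29 CPM per kilobase, and among these 4 each gene's range over WT mice overlapped that of its neighbour. *Hibch* at 10.8 ± 0.547 and *Bckdhb* at 8.49 ± 0.399 CPM per kilobase were lowest and did not overlap each other. The E1 beta transcript was thus measured at a lower level per kilobase than E1 alpha in every mouse. With the merged length of all exons in place of the canonical transcript, *Oxct1* remained first and *Bckdhb* last, whereas *Bckdha* stood above *Acat1*, and *Bcat2* stood at position 6. By raw CPM without regard to length, the 10 genes lay between the 82.6th and the 99.7th percentile of the genes tested.

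**Figure D3:**
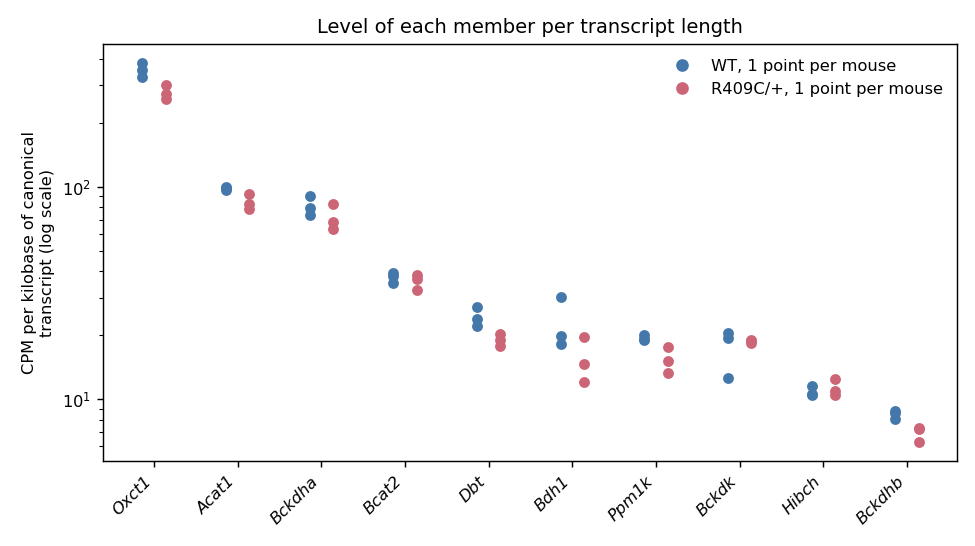
CPM per kilobase of the canonical transcript (y axis, log scale) of the 10 genes, ordered by the WT mean, with 1 point per mouse, blue for WT and red for *Lztr1* R409C/+. *Oxct1* stands above all others at a WT mean of 354, and *Dbt*, *Bdh1*, *Ppm1k*, and *Bckdk* lie close together, with WT means between 17.4 and 24.3 CPM per kilobase.

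Ratios between genes within a mouse do not depend on how libraries are scaled, and 5 were compared. The log2 ratio of the kinase *Bckdk* to the phosphatase *Ppm1k* was -0.64, -0.65, and -1.27 in WT mice and -0.35, -0.61, and -0.15 in mutant mice. Every mutant mouse was above every WT mouse, though mutant replicate 2 exceeded WT replicate 1 by little. The means were -0.85 ± 0.36 and -0.37 ± 0.23 (SD, n = 3 each). The difference of 0.48 gave p = 0.1 in a two-sided exact permutation test, and 0.5 after Benjamini-Hochberg adjustment over the 5 ratios. That p of 0.1 is the smallest that 3 against 3 mice allow, and any ratio without overlap gives it. The difference was 0.27 without WT replicate 3, the mouse of low *Bckdk*.

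Within the complex, the log2 ratio of *Bckdha* to *Bckdhb* was 2.01, 1.78, and 1.81 in WT mice and 1.74, 1.83, and 2.34 in mutant mice. Only mutant replicate 3 lay outside the WT range on the high side, and the difference of 0.11 (exact permutation p = 0.8) turned to -0.08 without it. For *Bckdha* to *Dbt* the log2 ratio was 1.23, 0.93, and 0.64 in WT mice and 0.93, 0.94, and 1.41 in mutant mice. Here too mutant replicate 3 was highest, and the difference was 0.16 (exact permutation p = 0.5). With each mouse omitted in turn it ranged from 0.00 (that mouse) to 0.31 (WT replicate 1), and it was 0.01 without WT replicate 3 and 0.24 without mutant replicate 1 or 2.

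Between the ketone genes, the log2 ratio of *Oxct1* to *Bdh1* was 4.22, 3.72, and 4.57 in WT mice and 4.59, 4.54, and 3.97 in mutant mice. The genotypes overlapped, and the difference of 0.20 (exact permutation p = 0.6) turned to -0.03 without WT replicate 2. The log2 ratio of *Oxct1* to *Acat1* was 1.45, 1.59, and 1.73 in WT mice and 1.45, 1.46, and 1.47 in mutant mice. Mutant mice were close together at the lower end of the WT range, with a difference of -0.13 (exact permutation p = 0.4). It was -0.06 without WT replicate 3.

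**Figure D4:**
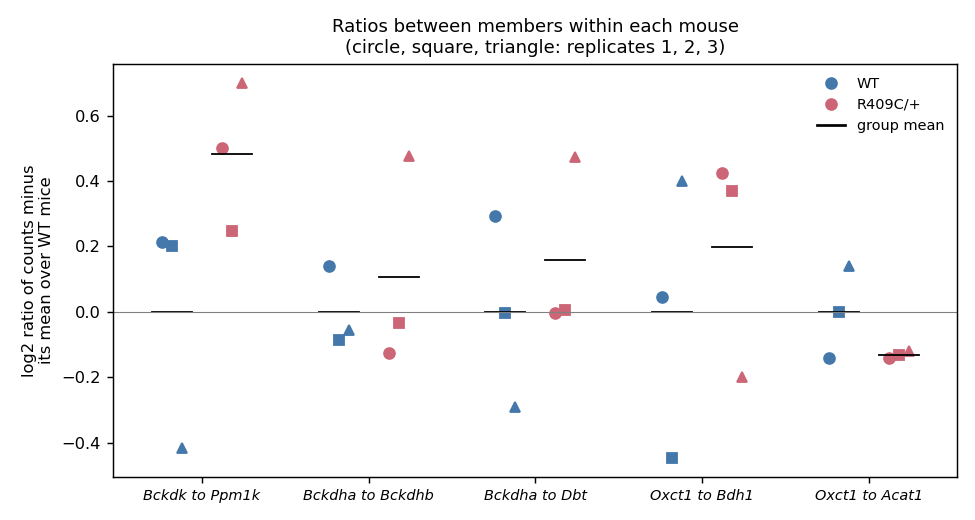
Log2 ratio of counts of 5 pairs of genes in each mouse, minus its mean over WT mice (y axis), with blue for WT, red for *Lztr1* R409C/+, circle, square, and triangle for replicates 1, 2, and 3, and a line for the group mean. The 3 red symbols lie above the 3 blue ones for *Bckdk* to *Ppm1k* only, with a mean difference of 0.48.

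Other genes of the same routes were taken from a list of 32, of which 30 were tested. *Oxct2a* and *Oxct2b*, testis forms of the CoA transferase, had 0 counts in every mouse. Of the 30, 21 had a lower and 9 a higher fold change, with a median of -0.09, and 0 passed an adjusted p of 0.05 by edgeR, DESeq2, or edgeR's exact test. At an unadjusted p under 0.05 by edgeR's quasi-likelihood test, 6 of the 30 were lower and 0 were higher, against 2.86% and 5.77% of all genes tested. DESeq2 and the exact test each gave 6 lower at that level, against 3.2% and 2.75% of all genes under those tests. The count lower was 2 with library size only (all genes: 301 of 17212) and 4 with the replicate block (324 of 17212). With each mouse omitted in turn it ranged from 3 to 7. The 3 was without WT replicate 1 (372 of 17899) and the 7 without mutant replicate 2 (531 of 17878). The count higher was 1 without WT replicate 1 (all genes: 911 of 17899), without WT replicate 2 (862 of 17953), or without mutant replicate 2 (928 of 17878). Every mutant mouse was below every WT mouse in 6 of the 30 and above in 0, against 7.23% and 8.3% of all genes tested.

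Uptake and transamination showed no common direction. Of 4 transporter genes, 1 had a lower and 3 a higher fold change, all with overlap between genotypes. The highest of the 4 was that of *Slc7a8*, a log2 fold change of 0.50 (SE 0.29, adjusted p 0.669 by edgeR). *Slc25a44*, the mitochondrial carrier of branched-chain amino acids, measured 14.7, 15.1, and 11.3 CPM in WT mice and 14.7, 13.2, and 13.9 CPM in mutant mice, a log2 fold change of 0.02 (SE 0.17) whose sign turned when scaled by library size only (-0.10). *Bcat1*, the cytosolic transaminase, was scarce, with 0.303 to 1.17 CPM in WT and 0.966 to 1.71 CPM in mutant mice. Its log2 fold change was 0.51 (SE 0.49, adjusted p 0.815 by edgeR), and it ranged from 0.11 without WT replicate 1 to 0.78 without WT replicate 2. *Klf15*, a transcription factor known to drive branched-chain amino acid breakdown in heart, measured 50.7, 30.3, and 50.3 CPM in WT mice and 30.7, 44.3, and 32.3 CPM in mutant mice. The genotypes overlapped in *Klf15*, with a log2 fold change of -0.29 (SE 0.22, adjusted p 0.754 by edgeR). With each mouse omitted in turn it ranged from -0.50 (WT replicate 2) to -0.17 (WT replicate 1), and it was -0.48 without mutant replicate 2, -0.18 without WT replicate 3, and -0.08 without both mice of extreme mitochondrial share. *Dld*, the E3 subunit that the complex shares with other dehydrogenases, measured 425, 452, and 498 CPM in WT mice and 349, 433, and 326 CPM in mutant mice. Only mutant replicate 2 lay within the WT range of *Dld*, and the log2 fold change was -0.31 (SE 0.17, adjusted p 0.642 by edgeR).

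In the leucine arm, 5 of 5 genes had a lower fold change (median -0.30), and 2 of them, *Ivd* and *Mccc1*, were without overlap, against 48.6% and 7.23% of all genes tested. *Ivd*, isovaleryl-CoA dehydrogenase, measured 327, 328, and 317 CPM in WT mice and 237, 260.3, and 256 CPM in mutant mice. WT mice were nearly equal, and all mutant mice were lower, with a log2 fold change of -0.37 (SE 0.15, unadjusted p 0.0285, adjusted p 0.531 by edgeR). *Mccc1*, a subunit of methylcrotonyl-CoA carboxylase, measured 90.8, 84.0, and 97.6 CPM in WT mice and 56.4, 73.6, and 77.8 CPM in mutant mice. Its log2 fold change was -0.39 (SE 0.17, unadjusted p 0.0360, adjusted p 0.554 by edgeR), and it was -0.21 without both mice of extreme mitochondrial share.

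In the isoleucine and valine arms, 5 of 6 genes had a lower fold change (median -0.26), and *Acadsb*, *Echs1*, and *Aldh6a1* were without overlap, against the same 48.6% and 7.23%. *Hibadh*, counted among the lower genes, was at 99.4% of its WT mean. *Acadsb*, a dehydrogenase of short branched acyl-CoA, measured 156, 160.4, and 178 CPM in WT mice and 127, 138, and 115 CPM in mutant mice (log2 fold change -0.38, SE 0.15, adjusted p 0.531 by edgeR). *Echs1*, an enoyl-CoA hydratase shared with fatty acid oxidation, measured 249.5, 240.4, and 291 CPM in WT mice and 218, 216, and 222 CPM in mutant mice (log2 fold change -0.25, SE 0.15, adjusted p 0.685 by edgeR). In both genes the mutant mice all lay below the WT mice, and the log2 fold change of *Echs1* was -0.17 without WT replicate 3 and -0.16 without both mice of extreme mitochondrial share. *Aldh6a1*, the dehydrogenase of methylmalonate semialdehyde in the valine arm, measured 272, 305, and 271 CPM in WT mice and 193, 244, and 196 CPM in mutant mice. Its log2 fold change was -0.42 (SE 0.16, unadjusted p 0.0222, adjusted p 0.504 by edgeR). *Hibch*, which acts earlier in the valine arm than *Aldh6a1*, had overlapping values, as given above.

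Carbon from isoleucine and valine leaves through propionyl-CoA, and 4 of the 6 genes of that arm had a lower fold change (median -0.11) and 1 was without overlap, against 48.6% and 7.23% of all genes tested. *Mcee*, the epimerase of methylmalonyl-CoA, was at 125% of its WT mean, with a log2 fold change of 0.32 (SE 0.18, adjusted p 0.663 by edgeR) and overlap between genotypes. *Mmut*, methylmalonyl-CoA mutase, measured 118, 113, and 125 CPM in WT mice and 66.2, 98.4, and 86.4 CPM in mutant mice. No mutant mouse reached the WT range of *Mmut*, and its log2 fold change of -0.50 (SE 0.17) had the lowest adjusted p of the list, 0.455 by edgeR. It was -0.32 without both mice of extreme mitochondrial share. Of the 6 other ketone genes tested, 4 had a lower fold change. *Slc16a1*, the monocarboxylate carrier MCT1 through which ketone bodies and lactate pass, measured 252, 286, and 370.0 CPM in WT mice and 184, 254, and 209.8 CPM in mutant mice. Mutant replicate 2 was just above WT replicate 1, so the genotypes overlapped, and the log2 fold change was -0.49 (SE 0.19, unadjusted p 0.0245, adjusted p 0.515 by edgeR). It was -0.32 without WT replicate 3 and -0.21 without both mice of extreme mitochondrial share.

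**Figure D5:**
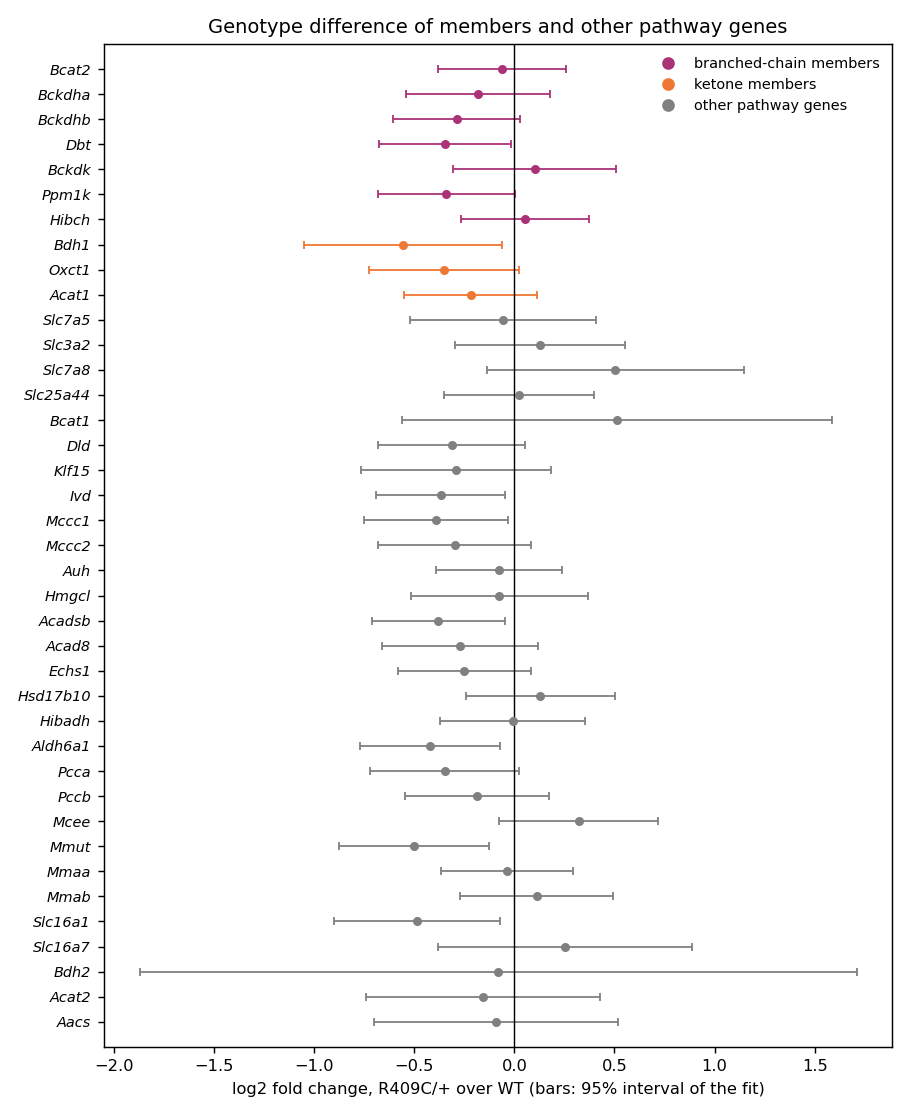
Log2 fold change, *Lztr1* R409C/+ over WT (x axis), of the 7 branched-chain genes, the 3 ketone genes, and 29 of the 30 other genes of the routes (rows), with points for the edgeR estimate and bars for its 95% interval. Most points lie left of 0, and the intervals of *Dbt* and *Bdh1* and of 6 other genes end below 0 without adjustment for the 17212 genes tested.

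In bulk tissue, fewer cells of a type and less RNA per cell cannot be told apart. The markers of ventricular cardiomyocytes (*Myh6*, *Tnnt2*, *Actn2*, *Myl2*, *Tnni3*, and *Ttn*) were all detected, and their summed level was 24191 to 29305 CPM in WT mice and 15833 to 29306 CPM in mutant mice. Of these 6 markers, 4 had a lower and 2 a higher fold change (*Myl2* 0.51 and *Tnnt2* 0.13), and none was without overlap. The lowest sum belonged to mutant replicate 1, where *Myh6* measured 6330 CPM, and that mouse also held the lowest value of 5 of the 10 genes. Without *Myh6*, the other 5 markers summed to 11956, 10213, and 10070 CPM in WT mice and 9503, 9220.4, and 12684 CPM in mutant mice, and the lowest sum was in mutant replicate 2. Of the 4 atrial markers, *Myl7* and *Sln* were at 0 counts in WT mice and at most 0.262 CPM in mutant mice, and *Myl4* was at most 0.570 CPM in any mouse. The fourth, *Nppa*, which ventricular cardiomyocytes under load also express, measured 37.7, 49.9, and 76.0 CPM in WT mice and 52.9, 106.5, and 76.3 CPM in mutant mice (log2 fold change 0.53, adjusted p 0.643 by edgeR), with overlap. Macrophage markers were higher in mutant mice in 5 of 5 genes, without overlap in 4, and summed to 68.5 to 72.1 CPM in WT and 111.5 to 132 CPM in mutant mice, though none passed an adjusted p of 0.05 by edgeR. Of these, *Cd68* measured 1.16 to 3.92 CPM in WT and 5.82 to 7.80 CPM in mutant mice.

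Erythroid markers were higher on average in 3 of 3 genes and overlapped, with sums of 345.6 to 869 and 612.7 to 1578 CPM. Fibroblast markers summed to 671 to 896 CPM in WT and 663.5 to 876 CPM in mutant mice, with 3 of 5 higher. Of these, *Tcf21* was without overlap, at 2.59 to 4.04 CPM in WT and 4.62 to 5.13 CPM in mutant mice. Endothelial sums were 460.2 to 629.6 and 372.9 to 656.4 CPM, and those of smooth muscle and pericytes 634.7 to 744.8 and 572.1 to 721.3 CPM. Of the 5 smooth muscle and pericyte markers, 4 had a lower fold change, and in *Myh11* (-0.71) and *Tagln* (-0.65) every mutant mouse was below every WT mouse, with adjusted p of 0.438 and 0.470 by edgeR. Adipocyte markers were at most 0.249 CPM in sum in any mouse, with *Lep* at 0, and hepatocyte markers summed to at most 8.23 CPM. The part of cell composition and of the mitochondrial share in the differences of the 10 genes was not tested.

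Some of the genes overlap others on the opposite strand, and whether the counting used strand was not given in the sources used here. Counts of genes with exons overlapping on the other strand amounted to 3.49% of the *Hibch* counts (*1700019D03Rik*), 2.74% of those of *Acat1* (*Npat*), and 2.42% of those of *Bckdha* (*B3gnt8*), and to less than 1% for the others of the 10. For *Dld* the share was 26.0% (*Lamb1*), for *Mmut* 5.27% (*Cenpq*), and for *Aldh6a1* 3.76% (*Lin52*). It was 29.7% for *Acad8* (*Thyn1*), 24.0% for *Slc3a2* (*Snhg1*), and 13.0% for *Pcca* (*Ggact*). Counts of *Tcp1* were 4542% of those of *Acat2*, which is among the 30 genes tested.

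Sequence upstream of the start site was read for the 10 genes from a RefSeq promoter table (GRCm38.p6, a build other than that of the positions above), which matched 8 of them by symbol, all but *Dbt* and *Acat1*. The 250 bases before the start site are shown 5′ to 3′ on the gene's strand for the E1 pair, whose members differed in overlap, and for the kinase and phosphatase, whose ratio was without overlap between genotypes. Capitals mark GGGCGG on either strand, the core of a GC box that SP family factors bind. The windows are chr7:25658762-25659011 (minus strand) for *Bckdha*, chr9:83924887-83925136 (plus strand) for *Bckdhb*, chr7:127903823-127904072 (plus strand) for *Bckdk*, and chr6:57535488-57535737 (minus strand) for *Ppm1k*.
Bckdha: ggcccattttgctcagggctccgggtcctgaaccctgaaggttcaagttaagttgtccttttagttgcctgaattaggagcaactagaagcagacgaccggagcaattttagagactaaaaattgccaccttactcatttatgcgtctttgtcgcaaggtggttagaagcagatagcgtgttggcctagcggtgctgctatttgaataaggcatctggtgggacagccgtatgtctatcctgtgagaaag
Bckdhb: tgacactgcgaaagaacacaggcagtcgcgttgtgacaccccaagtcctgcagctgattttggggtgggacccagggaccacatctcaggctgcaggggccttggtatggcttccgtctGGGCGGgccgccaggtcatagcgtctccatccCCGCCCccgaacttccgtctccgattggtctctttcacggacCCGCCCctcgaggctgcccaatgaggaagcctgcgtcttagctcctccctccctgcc
Bckdk: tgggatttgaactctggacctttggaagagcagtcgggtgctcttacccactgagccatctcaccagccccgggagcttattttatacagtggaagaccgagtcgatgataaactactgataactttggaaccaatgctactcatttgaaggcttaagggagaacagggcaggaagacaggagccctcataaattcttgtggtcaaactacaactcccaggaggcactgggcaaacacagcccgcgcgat
Ppm1k: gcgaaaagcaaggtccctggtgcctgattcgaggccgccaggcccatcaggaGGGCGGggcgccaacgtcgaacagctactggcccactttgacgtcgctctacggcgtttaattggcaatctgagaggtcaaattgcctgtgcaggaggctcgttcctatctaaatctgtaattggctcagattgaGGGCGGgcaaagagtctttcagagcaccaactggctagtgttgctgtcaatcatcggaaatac
The motif was present 3 times in the *Bckdhb* window shown and 2 times in that of *Ppm1k*, and it was not in those shown of *Bckdha* and *Bckdk*. Of windows not shown, that of *Hibch*, a gene with overlapping genotypes, held the motif 5 times. That of *Oxct1*, a gene without overlap, held it 0 times. A second *Bckdhb* window in the table, chr9:83948531-83948780, did not hold it. Of the 11 windows of the 8 genes, 3 held it (*Hibch*, *Ppm1k*, and *Bckdhb*), against 32.7% of 32851 windows of all genes. The letters AAGGTCA, a site of estrogen-related receptors, were in 0 of the 11 windows and in 4.08% of all windows, and AGGTCA followed by any 1 base and AGGTCA again, the repeat that PPAR and RXR bind, was in 0 of the 11 and in 0.0335% of all. Both strands were searched for each motif. A match of the repeat can overlap one of AAGGTCA.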

How the data were processed

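The authors trimmed reads with Trim Galore, aligned them with HISAT2 to GRCm39, left out rRNA, and used StringTie to assign reads to genes. Tool versions, annotation release, and strand use are not given in the sources used here. The authors deposited whole-number counts per gene without normalization for the 6 mice. A deposited table of the authors' edgeR comparison served for gene names only, and its fold changes and p-values were not used. Libraries were made with the NEBNext Ultra II RNA kit.

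The analysis used edgeR 4.0.16 in R 4.3.3: filterByExpr (17212 genes left), TMM, robust quasi-likelihood test over the 3 WT and 3 *Lztr1* R409C/+ mice, Benjamini-Hochberg adjustment, threshold 0.05, two-sided. The biological coefficient of variation was 26.1%. Scripts were tested on simulated data. Positions and lengths came from GENCODE M39, which held 98.8% of the identifiers. Replicates are mice as the labels give them, and no batch is named.

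The genes and lists were chosen with earlier results of these data known. A rule named the 10 genes, *Lztr1*, and 6 genes of the list of 32 by name. It also named any other of the 32 with an unadjusted p under 0.05 or no overlap between genotypes. Other genes of the list, among them *Mcee*, *Hibadh*, and *Slc7a8*, were named outside the rule. Of the genes named by the rule, 1 is not reported here. The alternatives were other scalings, DESeq2 1.42.0, edgeR's exact test, other filters, removal of mitochondrially encoded genes, a length correction, a replicate block, and omission of mice.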

Additional observations from a re-analysis of the deposited data

How the results depend on the processing

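None of the 10 genes and none of the other 30 passed an adjusted p of 0.05 in edgeR's quasi-likelihood test or under any of the 17 alternatives run, and the lowest adjusted p of the 10 lay between 0.340 (DESeq2) and 0.976 (library size only). The count of the 10 with a lower fold change was 8, or 9 with library size only, without WT replicate 3, and without mutant replicate 2. Of all genes tested, 65.5%, 47.5%, and 48.9% had a fold change below 0 in those settings, in that order. In the quasi-likelihood test of all 6 mice with TMM the share was 48.6%. Genes past the threshold numbered 7 of 17212. They numbered 21 with library size only, 158 with DESeq2, 137 with edgeR's exact test, 20 without the filter on low counts, 4 with the loess correction for gene length, 1 without both mice of extreme mitochondrial share, and 2 to 4 without each mouse in turn. The labels do not say whether equal replicate numbers pair the mice. Correlations of deviations between equal numbers (-0.0013, 0.022, and -0.057) showed no pairing, but with 3 mice per group they cannot exclude one. The replicate block gave 1 gene past the threshold and 0 of the 10. Signs turned in *Bcat2* (0.039) and *Bckdk* (-0.096) without both extreme mice, in *Bckdk* without WT replicate 3 (-0.092, with 0.23 the highest without another mouse), in *Hibch* with library size only (-0.099) and without mutant replicate 2 (-0.027, highest 0.10), and in *Slc25a44* with library size only (-0.10), the loess correction (-0.070), without WT replicate 3 (-0.10, highest 0.095) or mutant replicate 1 (-0.023), and without both (-0.14). Without each mouse in turn, the *Bckdha* to *Bckdhb* difference ranged from -0.080 to 0.22, *Bckdha* to *Dbt* from 0.00 to 0.31, *Oxct1* to *Acat1* from -0.20 to -0.06, *Oxct1* to *Bdh1* from -0.025 to 0.40, and *Bckdk* to *Ppm1k* from 0.27 to 0.60. The causes were not tested. The merged exon length, an alternative chosen after seeing the data, moved the WT level per kilobase of 9 of the 10 genes, all but *Dbt*, by more than 1 SD. Each of the 10 genes had at least 1995 counts in every mouse, so none lay near the floor of 3 counts.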
